A study of Mus musculus with 21 samples.

Results

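The Hox genes were examined in RNA sequencing of the mouse cecum, the blind pouch at the junction of the small and the large intestine. Hox genes encode homeodomain transcription factors that give the embryo its head-to-tail axis. They stand in 4 clusters, Hoxa, Hoxb, Hoxc and Hoxd, and genes at corresponding places in different clusters form paralog groups numbered 1 to 13. Low numbers are used towards the head and high numbers towards the tail, and in the adult gut part of this positional pattern persists, largely in the muscle and connective tissue layers. In the mouse embryo Hoxd genes take part in forming the bud of the cecum, and group 13 genes pattern the hindgut. The members were all genes of the count table whose GENCODE M21 symbol is Hoxa, Hoxb, Hoxc or Hoxd followed by a number, which gave 39 of 25361 genes.

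C57BL/6 mice of 3 weeks of age were given the Total Western Diet for 6 weeks and then this diet holding broccoli powder at 0%, 0.5%, 1.0% or 2.5% for 3 weeks. The labels put 6 cecum libraries in the 0% group and 5 in each of the others, 21 in all, made from total RNA of the whole tissue with a stranded mRNA kit. The labels give no sex, cage or day of collection and do not say how the cecum was cut, and each library carries a number of its own, taken here as 1 mouse. Library totals ran from 28514263 to 58594569 counts. Only cecum was analysed here, so no level is set against another gut segment.

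The labelled tissue was checked against markers on the scale of log2 CPM, where CPM is the count scaled to the library's size. The mean of 9 epithelial markers lay between 8.71 and 9.26 in the 21 libraries and that of 11 large intestine markers between 6.43 and 7.05. Markers of the small intestine split the libraries. Earlier work on these data had set 6 libraries apart by them: 0% replicate 5, 0.5% replicates 1 and 4, 1.0% replicate 1 and 2.5% replicates 1 and 2. Over 17 measured small intestine markers the mean was 3.45 to 6.25 in these 6 libraries, with a median of 3.90, against 1.36 to 2.13 in the other 15, with a median of 1.55. A further library, 1.0% replicate 5, stood apart in paralog group 13, as described under that group.

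Of the 39 Hox genes, 25 passed the filter on low counts and were tested, and 14 did not. Of these 14, Hoxb1 had 17 counts in all 21 libraries together, Hoxd1 16, Hoxd12 41, Hoxd13 172 and Hoxb13 343. The other 9 were at 0 in every library. Hoxc12 and Hoxc13 were among them and lie inside no other gene of the table, and 3 counts, the limit that a count of 0 allows, came to between 0.0475 and 0.0992 CPM in a library. The remaining 7 lie wholly inside another listed Hox gene on the same strand: Hoxa4, Hoxa5 and Hoxa6 inside the span of Hoxa3, Hoxc6, Hoxc8 and Hoxc9 inside that of Hoxc5, and Hoxd4 inside that of Hoxd3. Zeros at such places are general in this table. Of 317 protein-coding genes inside another listed gene of the same strand, 312 (98.4%) were at 0 in all libraries, and of 410 inside a gene of the opposite strand only, 409 (99.8%). Of 20705 genes inside no other gene, 2405 (11.6%) were. The 7 zeros are therefore no measurement of these genes, and the counts of Hoxa3, Hoxc5 and Hoxd3 may hold or lack reads of the genes inside them, which was not tested.

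Among the Hox genes measured, the cecum transcript pool was led by Hoxb6, and its neighbours in the Hoxb cluster lay far below it. Levels of different genes were compared as CPM per kilobase of exon, and Hoxb6 had the highest, with a median of 161 over the 21 libraries (133 to 202). No library of any other measured Hox gene reached this range. The Hoxb6 level stood at percentile 99.2 of the genes tested. Next came Hoxb9 with a median of 42.4 CPM per kilobase (35.5 to 51.4) and Hoxa7 with 36.3 (24.5 to 42.5), whose ranges overlapped. Hoxb6 and Hoxb9 varied little between libraries, with coefficients of variation of 12.2% and 9.32%.

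Paralog groups 2 to 13 were described by their highest measured member per length. In groups 4, 5, 6, 8 and 9 the nested genes at 0 could not be ranked. Among the low-numbered groups, which in the embryo act in the hindbrain and branchial region, Hoxa2 had a median level of 4.61 CPM per kilobase and Hoxb3 of 13.9. Groups 4 and 5 were led by Hoxb4 at 17.2 and Hoxb5 at 14.8 CPM per kilobase; Hoxb5 is known for its part in the enteric nervous system. Group 6 was led by Hoxb6, group 7 by Hoxa7 and group 8 by Hoxb8, the last at a median level of 18.8 CPM per kilobase. Group 9 was led by Hoxb9 and group 10 by Hoxa10 at 18.7 CPM per kilobase. Past group 10 the levels dropped. Hoxa11, known for its roles in limb, kidney and uterus, had a median level of 2.68 CPM per kilobase, Hoxd12 of 0.0115 and Hoxa13, a hindgut and limb gene, of 0.254. The ranges of Hoxb3, Hoxb4, Hoxb5, Hoxb8 and Hoxa10 overlapped, so that no order was drawn among them. The choice of length changed some of this order. Per kilobase of the longest transcript in place of all exons, Hoxb6 was still highest at a median level of 161, but Hoxa7 (51.4) stood above Hoxb9 (42.4), and Hoxa3 (19.5) above Hoxb3 (18.5). Hoxa9 had 37.7 CPM per kilobase on that scale.

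Summed over measured members, paralog group 6 held a median of 39.2% of the Hox level per kilobase of a library (34.8% to 45.01%). Group 6 was Hoxb6 alone, since Hoxa6 and Hoxc6 are nested genes at 0. Group 9 held 17.4% and group 7 held 13.8%. Groups 10, 3, 8, 4 and 5 followed with 6.41%, 5.74%, 5.55%, 4.73% and 4.19%. Group 2 held 1.61% and group 11 0.982%, and groups 13 and 12 held 0.0651% and 0.00302% in the median library. The shares of groups 4, 5, 6, 8 and 9 leave out the nested genes at 0. The summed Hox level, of which every share is a part, leaves them out as well. The map of levels by cluster and paralog group shows the same layout.

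**Figure D1:**
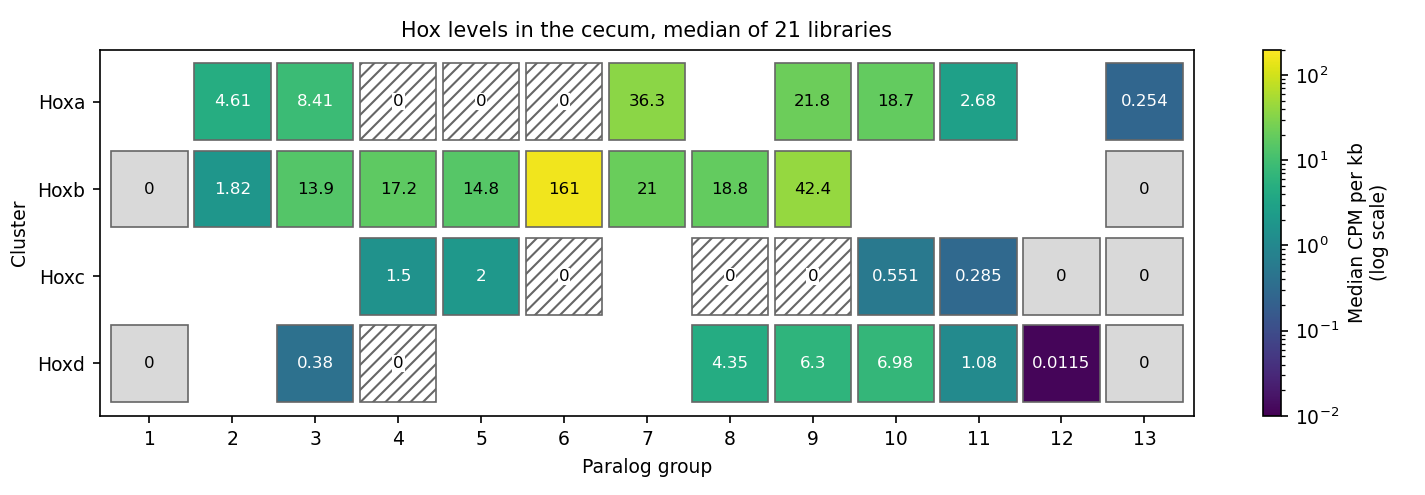
Median level of 38 of the 39 Hox genes over 21 cecum libraries, in CPM per kilobase of exon (colour on a log scale, value in each cell), by cluster (rows) and paralog group (columns). Hatched cells are genes at 0 that lie inside another listed gene, grey cells have a median of 0, and Hoxb6 is highest at 161.

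By cluster, Hoxb held 71.5% ± 2.2 of the summed Hox level per kilobase (SD, n = 21), Hoxa 22.5% ± 1.74, Hoxd 4.87% ± 1.06 and Hoxc 1.09% ± 0.225. These shares leave out the 7 nested genes at 0, which belong to Hoxa, Hoxc and Hoxd and not to Hoxb. The summed Hoxb level had a median of 291 CPM per kilobase, and Hoxb6 alone had one of 161. Within Hoxa the 3 highest measured genes were Hoxa7, Hoxa9 and Hoxa10, with Hoxa9 at a median of 21.8 CPM per kilobase. Within Hoxb, the next after Hoxb9 was Hoxb7 at a median of 20.97 CPM per kilobase. The Hoxd cluster was highest in its middle, with Hoxd10 at a median of 6.98, Hoxd9 at 6.30 and Hoxd8 at 4.35 CPM per kilobase. Hoxc was lowest by its measured genes, led by Hoxc5 at a median of 2.0, Hoxc4 at 1.505 and Hoxc10 at 0.551 CPM per kilobase. Hoxc5 and Hoxc10 share 166 exon bases, but most of the Hoxc10 span (chr15:102966796-102971893) lies inside that of Hoxc5 (chr15:102967443-103017429). Hoxc6, nested in Hoxc5, was at 0 with 0 shared exon bases. The Hoxc10 level may therefore lack reads too, which was not tested. Genes that overlap an annotated gene of the opposite strand number 10 of the 25 tested, among them Hoxb6 and Hoxa7. The kit keeps strand, but no source used here says whether the counting did. Of 410 protein-coding genes inside a gene of the opposite strand only, 409 were at 0, as given above. Hoxb5os, opposite Hoxb6, and Hoxaas3, opposite Hoxa7, are not among the listed genes. The counts of these Hox genes may therefore hold reads of the opposite strand, which was not tested.

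The tested members differed in how much they varied between libraries, as the coefficient of variation of CPM. It was lowest for Hoxb9 (9.32%) and Hoxb5 (10.04%), and the 8 tested Hoxb genes stayed at or below 14.9%. Hoxd9, Hoxd10 and Hoxd11 had 21.4%, 23.1% and 23.96%. Hoxa11 had 28.7%, Hoxc11 53.7% and Hoxa13 63.9%. Counts were low for Hoxc11 and Hoxa13, with 561 and 632 over all 21 libraries together.

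The windows of 250 bases before the RefSeq start were taken from RefSeq (GRCm38.p6) for the genes on which the results below turn, Hoxa10, Hoxa13 and Hoxd13, and for Hoxb8, the window with the most motif matches. RefSeq windows matched 22 of the 39 symbols, with 24 starts. Capitals mark matches, on either strand, to the TATA box (TATAAA), a caudal site as bound by CDX proteins (TTTATNG) or a Hox-Pbx site (TGATNNAT); a caudal and a TATA match can overlap. None of the 4 windows shown overlaps an annotated exon. Hoxa10 lies at chr6:52231197-52240854 and Hoxa13 at chr6:52257694-52260880, both on the minus strand, Hoxd13 at chr2:74668310-74671599 and Hoxb8 at chr11:96281905-96285315, both on the plus strand.
Hoxa10, chr6:52240855-52241104, minus strand: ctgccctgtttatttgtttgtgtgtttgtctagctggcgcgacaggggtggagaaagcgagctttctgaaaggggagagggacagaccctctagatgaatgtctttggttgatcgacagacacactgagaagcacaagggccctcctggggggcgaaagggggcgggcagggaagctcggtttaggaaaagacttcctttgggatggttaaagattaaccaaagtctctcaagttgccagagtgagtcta
Hoxa13, chr6:52260881-52261130, minus strand: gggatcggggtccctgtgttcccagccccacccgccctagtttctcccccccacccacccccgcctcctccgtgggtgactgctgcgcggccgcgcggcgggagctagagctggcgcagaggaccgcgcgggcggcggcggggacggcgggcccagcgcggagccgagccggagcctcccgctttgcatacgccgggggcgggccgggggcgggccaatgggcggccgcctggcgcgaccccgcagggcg
Hoxd13, chr2:74667975-74668224, plus strand: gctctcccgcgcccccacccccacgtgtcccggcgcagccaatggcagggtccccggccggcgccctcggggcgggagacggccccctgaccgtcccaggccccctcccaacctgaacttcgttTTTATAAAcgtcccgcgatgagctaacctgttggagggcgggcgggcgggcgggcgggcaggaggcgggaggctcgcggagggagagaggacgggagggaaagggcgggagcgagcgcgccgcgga
Hoxb8, chr11:96281655-96281904, plus strand: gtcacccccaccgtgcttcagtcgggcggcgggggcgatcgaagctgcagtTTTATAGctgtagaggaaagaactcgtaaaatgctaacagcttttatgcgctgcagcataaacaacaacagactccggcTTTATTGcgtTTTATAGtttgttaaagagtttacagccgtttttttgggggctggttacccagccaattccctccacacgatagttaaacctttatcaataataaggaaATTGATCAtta
The Hoxa10 and Hoxa13 windows shown held none of these motifs. RefSeq lists another start of Hoxa10, whose window at chr6:52234940-52235189 lies within the gene, is not shown and held 1 TATA match. Of the other windows shown, Hoxd13 held 2 overlapping TATA matches, 1 on each strand, and Hoxb8 held 3 caudal matches, 1 Hox-Pbx match and 2 TATA matches. The caudal motif was found in 2 of the 24 Hox windows (8.33%) and in 9.74% of 32536 promoter windows. The Hox-Pbx motif and the TATA box were each found in 4 of 24 (16.7%), against 7.66% and 12.3% of all windows. The retinoic acid response element of the DR5 type, a direct repeat, was found in 0 of 24 Hox windows and in 0.00922% of all windows. A match is a description of letters and says nothing of binding.

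The question whether Hox genes differ in the 6 libraries high in small intestine markers was asked of all 15652 tested genes together, with diet as a term, by edgeR's quasi-likelihood test with Benjamini-Hochberg adjustment. The 6 libraries are no labelled group: they were set apart by their small intestine markers, and p-values compare these libraries with the other 15, not a condition. All 4 diets hold at least 1 of them. Of the 25 Hox genes tested, 1 passed, Hoxa10, which was lower in the 6 libraries; over all genes 17 were called lower (0.109%) and 201 higher (1.28%). No Hox gene was called higher.

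Hoxa10, known for its part in the posterior trunk and the uterus, had 41.0 CPM in the lowest, 52.5 in the median and 63.4 in the highest of the 6 libraries, against 54.4, 61.6 and 73.8 CPM in the other 15. The ranges overlapped: 4 of the 6 lay below all 15 others, and 5 of the 6 below every library of their own diet that is among the 15. The exception was 0% replicate 5 with 58.1 CPM, against 54.4 to 66.1 CPM in the other 0% libraries. The fitted log2 change was -0.30 ± 0.07 (SE), with an adjusted p of 0.0283. The call rested on single libraries. Its adjusted p was 0.260 without 1.0% replicate 1, which had the lowest level (41.0 CPM), 0.0838 without 2.5% replicate 1, 0.0588 without 0.5% replicate 1 and 0.0551 without 0.5% replicate 2, and 0.220 without the 2 libraries highest in small intestine markers.

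The genes next to Hoxa10 in the cluster were chosen for naming after their values were seen, and none of them passed. Hoxa11 had 3.56, 4.41 and 6.14 CPM in the lowest, median and highest of the 6 libraries, against 4.05, 7.32 and 9.34 CPM in the other 15, a log2 change of -0.53 ± 0.16 with an adjusted p of 0.139. Of the 6, 3 lay below all 15 others. Hoxa11 passed without 0.5% replicate 4 (-0.70, adjusted p = 0.0114), and its change was -0.25 without the 2 libraries highest in small intestine markers (adjusted p = 0.847). Hoxa13 had 0.0238, 0.351 and 1.08 CPM in the lowest, median and highest of the 6 libraries, against 0.196, 0.730 and 1.77 CPM in the other 15. Its log2 change was -1.18 ± 0.47 with an adjusted p of 0.341, and its counts were low, with 1 count in 1.0% replicate 1. Hoxa9 had a log2 change of -0.26 ± 0.10 (adjusted p = 0.348) and Hoxa7 of -0.17 ± 0.08 (adjusted p = 0.496). Single libraries moved both: the change of Hoxa9 was -0.41 without 0% replicate 5 (adjusted p = 0.0553), and that of Hoxa7 was -0.09 without 1.0% replicate 1 (adjusted p = 0.956). Hoxa11 overlaps Hoxa11os on the opposite strand, which was not analysed here.

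**Figure D2:**
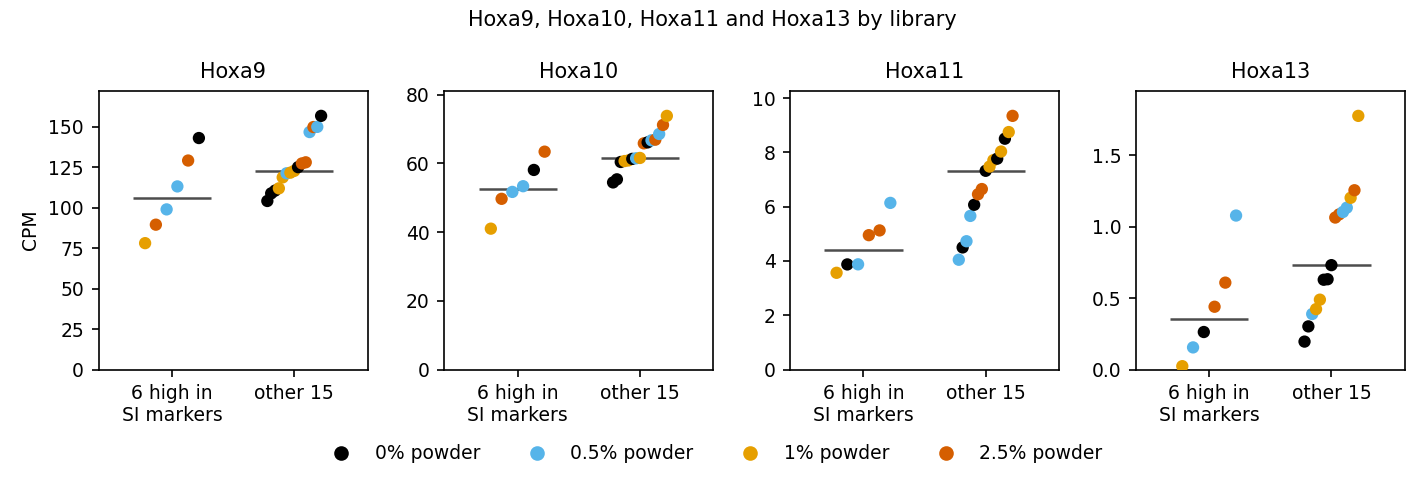
CPM of Hoxa9, Hoxa10, Hoxa11 and Hoxa13 in the 6 libraries high in small intestine (SI) markers (left of each panel) and the other 15 (right), 1 point a library, coloured by diet, with the median as a line. In all 4 panels the median of the 6 lies below that of the 15 and the ranges overlap; for Hoxa10 the medians are 52.5 and 61.6 CPM.

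Across the tested Hox genes, 21 of 25 (84.0%) had a negative log2 change in the 6 libraries, with a median of -0.13, against 50.2% of all genes tested, with a median of -0.00052. Below an unadjusted p of 0.05 lay 5 of the 25, all lower and all of the Hoxa cluster, against 9.63% of all genes in either direction and 3.57% lower. By cluster, 8 of 8 Hoxa genes had negative changes (median -0.28), 7 of 8 Hoxb genes (median -0.09), 5 of 5 Hoxd genes (median -0.14) and 1 of 4 Hoxc genes (median 0.12). By position, 9 of the 10 tested genes of groups 9 to 13 had negative changes, with a median of -0.27. Of groups 4 to 8, 7 of 9 had negative changes (median -0.12), and of groups 1 to 3, 5 of 6 (median -0.07). Whether groups differ from each other was not tested. Apart from Hoxa10 these are counts of genes that did not pass.

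**Figure D3:**
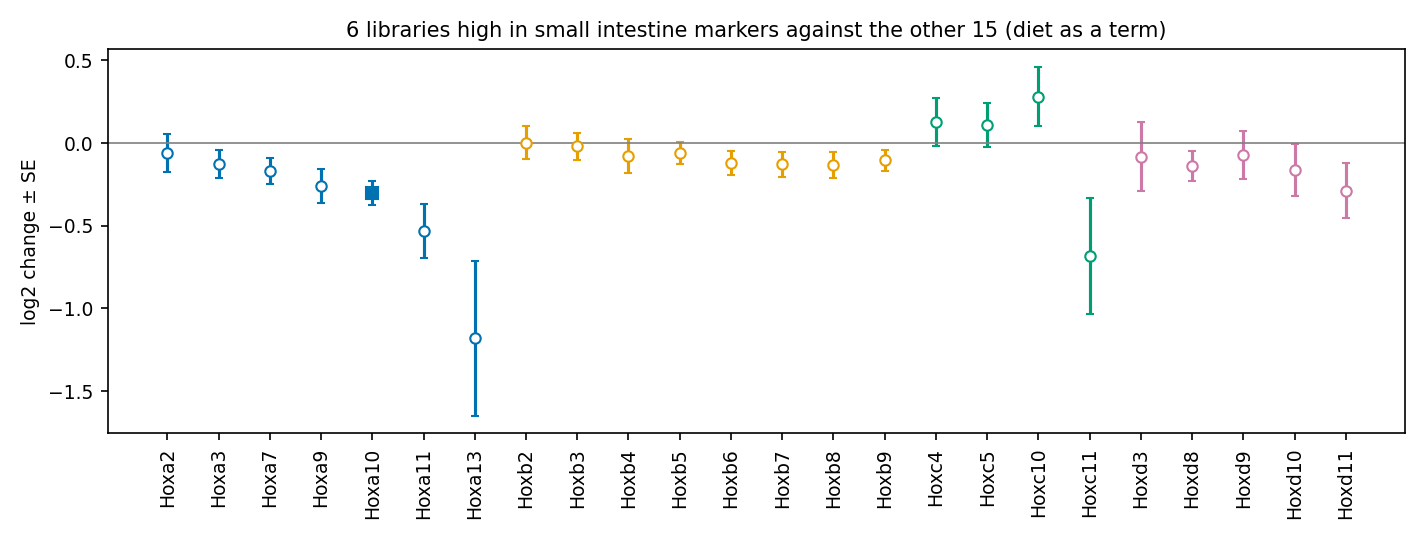
Log2 change ± SE (edgeR) of 24 of the 25 tested Hox genes in the 6 libraries high in small intestine markers against the other 15, with diet as a term, ordered by cluster and paralog group. The filled square is Hoxa10, the 1 gene with an adjusted p under 0.05; 20 of the 24 points lie below 0.

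The summed level of each paralog group was compared as a description. For groups 2 to 5, 7 and 12, none of the 6 lay outside the range of the other 15. For group 10 the 6 libraries had 17.9, 23.5 and 27.2 CPM per kilobase in the lowest, median and highest library, against 24.4, 26.8 and 30.6 in the other 15, and 4 of the 6 lay below all others. For group 11 they had 2.30, 3.16 and 3.87 CPM per kilobase, against 2.96, 4.41 and 5.77 in the other 15, and 3 of the 6 lay below all others. For group 6, here Hoxb6 alone, they had 133, 149 and 169 CPM per kilobase, against 138, 162 and 202 in the other 15. Of the 6, 2 lay below all others. Below all others also lay 1 of the 6 for group 8, 2 for group 9 and 2 for group 13. In none of these groups did any of the 6 lie above all others. The shares of the clusters overlapped. Hoxb held a median of 72.2% of the summed level in the 6 libraries and 71.3% in the other 15. Hoxa held 21.4% in the 6 libraries and 23.0% in the other 15.

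Other genes that mark position along the gut were set beside these. Of 14 tested transcription factors of the gut position list, 1 passed in the 6 libraries, Gata5, a zinc finger factor of the small intestinal epithelium. It had 6.02, 9.22 and 25.6 CPM in the lowest, median and highest of the 6 libraries, against 1.84, 2.66 and 5.05 CPM in the other 15, and all 6 lay above all 15. Its log2 change was 2.20 ± 0.25 (adjusted p = 1.49e-05). This is a description, since small intestine markers made the split and Gata5 is a factor of that epithelium. It is no independent sign of position. Gata4, which marks the proximal small intestine, was under the filter, with 44 counts in 0% replicate 5, 20 in 1.0% replicate 1 and at most 9 in any other library. Of 11 tested large intestine markers 1 passed and 8 had negative changes, and the list means had medians of 6.68 log2 CPM in the 6 libraries and 6.67 in the other 15. Muc2, the goblet cell mucin, had a positive change of 0.87 ± 0.21 that did not pass (adjusted p = 0.0516). The 1 that passed, Aqp8, a water channel of the colon, was lower, with 263, 427 and 443 CPM in the lowest, median and highest of the 6 libraries, against 361, 542 and 742 CPM in the other 15 (log2 change -0.56 ± 0.13, adjusted p = 0.0340). The Aqp8 call held in 5 of 11 other settings, with adjusted p of 0.00073 to 0.629 over all 11. It was also lost, with adjusted p of 0.0504 to 0.239 by edgeR's quasi-likelihood test, on leaving out any 1 of 0% replicates 1, 2 or 5, 0.5% replicate 5, 1.0% replicates 1 or 2, or 2.5% replicates 1, 2, 3 or 4.

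The ParaHox genes Cdx1 and Cdx2, caudal factors that act upstream of Hox genes and define intestinal identity, did not pass. Cdx2 had 313, 360 and 391 CPM in the lowest, median and highest of the 6 libraries, against 343, 393 and 442 CPM in the other 15 (log2 change -0.19 ± 0.06, adjusted p = 0.176). Cdx1 had a log2 change of -0.09 ± 0.07 (adjusted p = 0.836), and of -0.047 without 2.5% replicate 4. Among the DNA-binding partners of Hox proteins, 0 of 9 passed, with a median log2 change of -0.11; Meis1 had -0.12 ± 0.16 (adjusted p = 0.931), and 0.032 without 0% replicate 5. Of 10 genes flanking the clusters 0 passed, with a median of -0.01, and of 16 chromatin and retinoid regulators of Hox genes 0 passed, with a median of -0.04. At an unadjusted p under 0.05 lay 0 of the 9 partners, 0 of the 10 flanking genes and 3 of the 16 regulators, beside 9.63% of all genes tested. The 3 regulators differed in direction, with log2 changes of -0.34 for Rarb, -0.18 for Rarg and 0.34 for Cbx8.

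The markers by which the 6 libraries had been set apart moved far more. Of 17 tested small intestine markers 14 were called higher, a description since they made the split. Fabp6, the ileal bile acid binding protein, had 9.43, 16.9 and 71.7 CPM in the lowest, median and highest of the 6 libraries, against 0.106, 0.419 and 1.84 CPM in the other 15. Defa24, a Paneth cell defensin, had 0.463, 1.87 and 47.3 CPM in the 6 libraries, against 0, 0 and 0.396 CPM in the other 15. Apoa1, an apolipoprotein of the small intestinal absorptive cell, had a log2 change of 6.44.

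Ranges of markers of cell types that could carry Hox transcripts overlapped between the libraries, though single libraries stood at the edges. The mean log2 CPM of 10 smooth muscle markers was 7.73 to 8.79 in the 6 libraries and 7.47 to 8.79 in the other 15, and 0 of 10 passed. Of the 6, 1.0% replicate 1 (7.73) and 0% replicate 5 (7.80) lay below every other library of their diets. By contrast 2.5% replicate 1 (8.79) lay above every other of its diet, and 0.5% replicates 1 and 4 and 2.5% replicate 2 lay inside. Of 8 fibroblast markers, with means of 5.41 to 6.04 in the 6 libraries and 5.11 to 5.80 in the other 15, all had positive changes and 0 passed. The fibroblast means of 0% replicate 5 (6.04) and 2.5% replicates 1 (6.00) and 2 (5.99) lay above all 15 others. Those of 0.5% replicates 1 and 4 and 1.0% replicate 1 lay inside the range of the 15. Of 13 neuron and glia markers 0 passed, with means of 2.48 to 3.19 in the 6 libraries and 2.03 to 3.21 in the other 15. All 6 fat cell markers had positive changes (median 0.80) and 0 passed. Their means were 3.85 to 6.16 in the 6 libraries and 0.129 to 5.58 in the other 15. The fat cell mean of 1.0% replicate 1 (6.16) lay above all 15. Of 9 epithelial markers, 8 had positive changes (median 0.05) and 0 passed. In whole tissue, fewer cells that express a gene and less RNA per cell cannot be told apart. With the smooth muscle mean as a term Hoxa10 and Hoxa11 were both called lower, with log2 changes of -0.30 and -0.55. With the fibroblast mean as a term, chosen after the data were seen, Hoxa10 remained called at -0.35. A marker mean as a term does not separate cell content from RNA per cell. The part of these cell types in the Hox values was not tested.

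Paralog group 13 was near 0 in most libraries and set 1 library apart. Hoxb13, which in the mouse is active in the hindmost gut and tail, had 342 counts (5.42 CPM) in 1.0% replicate 5, against 1 count in the other 20 libraries together, in 0% replicate 1. Hoxd13 had 157 counts (2.49 CPM) in 1.0% replicate 5, against 15 counts in the other 20 together and at most 3 in any of them. Hoxa13 was highest in the same library, with 112 counts (1.77 CPM), against 1 to 57 counts (0.0238 to 1.25 CPM) elsewhere. The library holds the largest total of the 21. On the CPM scale, which divides by depth, it was also highest for Hoxb6 (397 CPM) and Hoxb7 (40.7 CPM), and 13th for Hoxa10 (60.7 CPM).

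**Figure D4:**
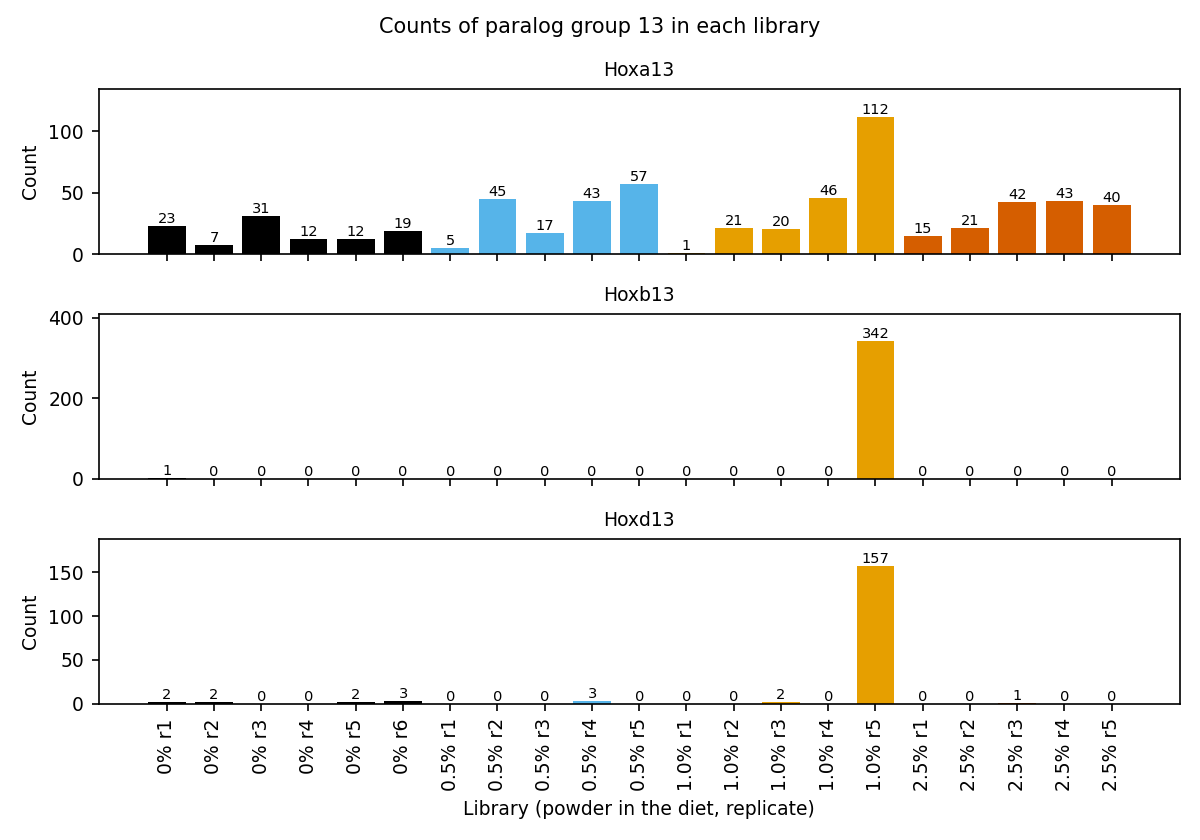
Counts of Hoxa13, Hoxb13 and Hoxd13 in each of the 21 libraries, ordered by diet (colour) and replicate, with the count above each bar. Hoxb13 reaches 342 and Hoxd13 157 in 1.0% replicate 5, and at most 1 and 3 in any other library.

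Genes far above all other libraries in 1.0% replicate 5 were listed after these values were seen. On the scale of CPM plus 0.05, 5 genes exceeded 5 times the highest of the other 20 libraries: Hoxb13, Tgm3, Hoxd13, Atp12a and 2310079G19Rik, the last on 20 counts. Tgm3, an enzyme that crosslinks proteins in stratified epithelium, had 788 counts in this library, against at most 21 in any other. Atp12a, a proton and potassium pump of the distal colon, had 247 counts, against at most 11. By the same measure 29 genes stood out in 1.0% replicate 1, 18 in 0% replicate 5 and 0 to 2 in each of the remaining libraries. Hoxb13 and Hoxd13 were under the filter and were not tested. Where along the gut this sample was cut is not given, and the part of that in these counts was not tested. Without this library Hoxa10 remained called in the 6 libraries, at -0.30.

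Broccoli powder left no Hox gene past the threshold in any comparison of diets. In edgeR's quasi-likelihood test over all genes, 0 of 25 Hox genes passed at 0.5%, 1.0% or 2.5% against 0%, in the slope over dose, and in the test of any difference among the 4 diets. The genes called over the whole table were also few: 1 at 0.5% (0.00639%), 0 at 1.0% (0%), 17 at 2.5% (0.109%), 23 in the slope (0.147%) and 4 among the 4 diets (0.0256%). At an unadjusted p under 0.05 lay 5 Hox genes at 0.5%, 1 at 1.0%, 3 at 2.5%, 3 in the slope and 3 among the 4 diets, beside 7.14%, 3.18%, 8.43%, 7.32% and 6.41% of all genes tested. DESeq2 and limma voom called 0 in each as well. The 3 doses share the 6 libraries on 0%. A p above the threshold does not show that levels were equal.

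The Hox genes with the lowest p in each comparison were few and had small differences. At 0.5%, Hoxc5 had 5.33, 5.51, 4.0, 5.14 and 4.61 CPM, against 5.82, 7.48 and 8.22 CPM in the lowest, median and highest 0% library. These groups did not overlap (log2 change -0.55 ± 0.16, adjusted p = 0.616), and Hoxc5 may hold reads of the genes inside it. Hoxb3 at 0.5% had 74.4, 75.6, 67.1, 66.7 and 57.1 CPM, against 46.1, 53.3 and 69.1 CPM in the lowest, median and highest 0% library. Its groups overlapped (log2 change 0.32 ± 0.10, adjusted p = 0.628). Both also had the lowest p among the 4 diets, with adjusted p of 0.672 for Hoxc5 and 0.712 for Hoxb3.

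At 1.0% the lowest p belonged to Hoxa7 and Hoxd8, both with an adjusted p of 0.999. Hoxa7 averaged 93.2 ± 13.9 CPM at 1.0% (n = 5) and 108 ± 15.1 CPM at 0% (SD, n = 6), a log2 change of -0.22 ± 0.10. Without 1.0% replicate 1, 1 of the 6 libraries high in small intestine markers, it was -0.13. Hoxd8 averaged 11.7 ± 1.52 CPM at 1.0% and 13.5 ± 1.68 CPM at 0%, a log2 change of -0.21 ± 0.11. In both the ranges overlapped.

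At 2.5% the lowest p belonged to 2 Hoxb genes, Hoxb2 and the leading gene Hoxb6. Hoxb6 had 285, 262, 306, 289 and 271 CPM at 2.5%, against 281, 322 and 392 CPM in the lowest, median and highest 0% library. The groups overlapped (log2 change -0.23 ± 0.09, adjusted p = 0.506). Hoxb2 averaged 5.82 ± 0.403 CPM at 2.5% (n = 5) and 7.27 ± 0.969 CPM at 0% (SD, n = 6), with overlapping ranges (log2 change -0.32 ± 0.12, adjusted p = 0.450). The same pair led the slope over dose, with log2 changes per 1% powder of -0.13 ± 0.04 for Hoxb2 (adjusted p = 0.440) and -0.10 ± 0.03 for Hoxb6 (adjusted p = 0.508). Group means of Hoxb6 were 331, 330, 320 and 283 CPM at 0%, 0.5%, 1.0% and 2.5%.

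**Figure D5:**
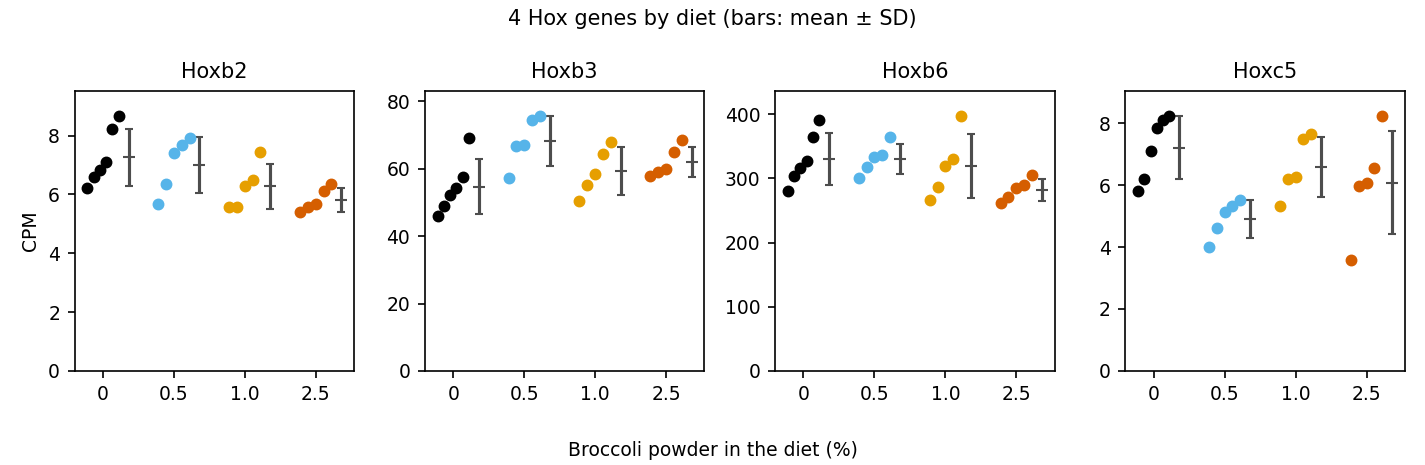
CPM of Hoxb2, Hoxb3, Hoxb6 and Hoxc5 at 0%, 0.5%, 1.0% and 2.5% broccoli powder, 1 point a library, with the mean ± SD beside each group (n = 6 at 0%, 5 at each other dose). None of the 4 genes passed in any comparison of diets; for Hoxb6 the group means are 331, 330, 320 and 283 CPM.

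The shares of the clusters moved little with diet. Hoxb held 70.8% ± 1.74 of the summed Hox level per kilobase at 0%, 72.7% ± 1.26 at 0.5%, 72.5% ± 3.08 at 1.0% and 70.2% ± 1.93 at 2.5% (SD). Hoxc held 1.21% ± 0.191 at 0%, 0.858% ± 0.111 at 0.5%, 1.18% ± 0.205 at 1.0% and 1.07% ± 0.226 at 2.5%. These shares are a description without a test. At 2.5%, 17 of 25 tested Hox genes had negative log2 changes (median -0.08), against 53.1% of all genes tested, and none passed. By position the changes were negative in 3 of 6 genes of groups 1 to 3. They were negative in 9 of 9 of groups 4 to 8 (median -0.16) and in 5 of 10 of groups 9 to 13. Whether these groups differ was not tested.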

How the data were processed

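Values are raw counts per gene in 1 table of 25361 Ensembl genes and 21 libraries, as the authors deposited them; genome build mm10 is named per the submitters' processing notes, and the sources used here name no aligner, counter, annotation or strand setting. GENCODE M21 (GRCm38) gave the symbols of 25268 genes. Members and gene lists were chosen with earlier results of these data known. Replicate numbers follow accession order and pair nothing. No library was a duplicate: over the 45 pairs within diets, chi-square divided by its degrees of freedom was 17.1 or more.

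Genes were filtered with edgeR 4.0.16 filterByExpr by diet, which left 15652, scaled by TMM and tested with edgeR's robust quasi-likelihood test (glmQLFit, glmQLFTest; R 4.3.3), two-sided, with Benjamini-Hochberg adjustment over all tested genes and a threshold of 0.05. The fit was diet plus an indicator of 6 libraries for the first comparison, diet for the doses and dose for the slope. P-values weigh a fitted difference against the spread between these libraries. CPM were computed over tested genes with TMM-scaled library sizes; log2 CPM for list means used a prior count of 2. The steps were tested on simulated data with planted changes larger than most Hox changes reported here. Recovery of changes as small as these was not tested. Count limits cover counting error only. Levels were named for the 3 highest members per length in each cluster and the highest of each paralog group; test values for each called Hox gene or, where none was called, the 2 lowest p; and up to 4 called members of a list. Cdx1, Cdx2, Gata4 and Meis1 were among those to be named whatever their p; Prac1 was not analysed here, and a few genes that the rule would name are not reported here. Genes named outside this rule were chosen after their values were seen. Alternatives were RLE factors, library totals, no filter, DESeq2 1.42.0, limma 3.58.1 voom, marker means as terms, leaving out libraries and fits of 2 diets.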

Additional observations from a re-analysis of the deposited data

Results flagged for a closer look

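Values per diet were screened for a single library far from the rest of its group by Dixon's 95% critical value. Of 104 groups of values, over 26 Hox genes with at least 100 counts in all, 9 had such a library. A rate of 1 in 20 groups would give 5.2, but that rate does not hold where counts are few. A group with counts in a single library only is flagged however low the count, and a group without counts cannot be flagged. Groups of each kind are among the 104, so whether 9 exceeds chance was not tested.

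Paralog group 13 gave 5 of the 9. Hoxb13 in 1.0% replicate 5 had 5.42 CPM, against 0 in the other libraries on 1.0%, and Hoxd13 in the same library had 2.49 CPM, against at most 0.0423 CPM. The other 3 are values of 1 to 3 counts in a group otherwise at 0: Hoxb13 in 0% replicate 1 with 0.0275 CPM, Hoxd13 in 0.5% replicate 4 with 0.0752 CPM and Hoxd13 in 2.5% replicate 3 with 0.0253 CPM.

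In 1.0% replicate 1, 1 of the 6 libraries high in small intestine markers, Hoxa9 was lowest with 78.1 CPM, against 112 to 123 CPM in the other libraries on 1.0%, and Hoxa11 with 3.56 CPM, against 7.48 to 8.75 CPM. In 2.5% replicate 1, also 1 of the 6, Hoxa3 was lowest with 39.7 CPM, against 50.6 to 53.1 CPM, and Hoxb4 highest with 44.2 CPM, against 40.6 to 41.6 CPM in the other libraries on 2.5%.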

How the results depend on the processing

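For 27 results, 822 values were computed under other settings; 778 kept their direction and their side of the threshold or, for counts and shares, stayed close, 24 lost the threshold, 6 gained it, 12 counts or shares moved and 2 turned sign. The count of Hox genes lower in the 6 libraries was 1. It was 0 with library totals, with no diet term and without the 2 libraries highest in small intestine markers, and 2 (Hoxa10 and Hoxa11) with DESeq2, with the smooth muscle mean as a term and with the small intestine mean as a continuous term. Without the libraries numbered above 70 it was 1, Hoxa11 in place of Hoxa10. Leaving out 1 library at a time gave 0 to 2, and Hoxa10 log2 changes of -0.38 to -0.22 that passed in 17 of 21 fits. Over the other settings the adjusted p of Hoxa10 was 0.00609 to 0.220, and the cause of these moves was not tested. The sign turned for Meis1 without the 2 libraries highest in small intestine markers (0.22), and leaving out 1 library gave -0.24 to 0.032 for it. The Hoxb share was 64.8% per length of the longest transcript in place of the exon union, and 71.3% to 71.7% with 1 library left out. Hox calls in the diet comparisons were 0 under every setting and with each library left out, and calls higher in the 6 libraries were 0 likewise. No paired analysis was possible because replicate numbers only follow accession order. Depth limits the genes with few counts, among them Hoxb1, Hoxd1, Hoxd12 and Hoxd13.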
